A study of Caenorhabditis elegans with 2 samples.

Results

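The regions described here were the 3672 that stood directly below the thresholded peak list in a chromatin immunoprecipitation sequencing (ChIP-seq) data set of the Caenorhabditis elegans protein C04F5.9. The authors' combined list, made from both replicates, held 30000 regions, each with a signal value. Regions were sorted by that signal from high to low, and those after the first 1205 and down to rank 5000 were taken (3795 regions). The 123 of these that overlapped a peak of the authors' optimal list by at least 1 bp were dropped. The optimal list held 1205 peaks, which were the first 1205 regions of the combined list. The 24809 regions below rank 5000 that overlapped no optimal peak were the other side of the comparison. Below, "members" are the 3672 regions, "optimal peaks" are the 1205 peaks and "weaker regions" are the 24809.

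All libraries belonged to 1 group with 2 biological replicates, numbered in the labels. The animals were whole L1 hermaphrodites of strain OP525, genotype unc-119(tm4063) III with the transgene wgIs525, which stably expressed C04F5.9 fused at its C terminus to a GFP-FLAG tag. Bleaching followed by starvation had synchronised them 6 hours before they were collected. Chromatin was sonicated and the tagged protein was precipitated with an antibody to GFP. The labels used here do not say which promoter drives the transgene, whole animals mix all cell types, and no untagged or otherwise treated group is among these samples, so every comparison below is between classes of regions in the same libraries. Nothing in the labels says that the 2 replicates came from separate cultures beyond the word biological.

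ChIP-seq recovers the DNA that lies under or near a protein in fixed chromatin, and a region with many recovered fragments over its surroundings is called a peak. The irreproducible discovery rate (IDR) asks how far down 2 ranked replicate lists the same regions keep similar ranks. The optimal list was thresholded by IDR, and here it equalled the first 1205 regions of the combined list. Its peaks therefore need not each rank alike in the replicates, and 1201 of the 1205 had a region in both. The relaxed lists that IDR takes as input are meant to run on into background. C2H2 zinc fingers, the domain type annotated in C04F5.9, are a common DNA-binding fold, and in worms the stretch upstream of a gene's 5' end carries much of its regulatory DNA.

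The members' signal ran from 72.2 at the top to 35.9 at the bottom, with a median of 43.2. The optimal peaks had a median of 114.9 and the weaker regions a median of 22.9. These values chose the members and are given as a description. There was no step in signal at either bound: the first 5 members, down to rank 1211, had 72.18, 72.16, 72.00, 71.99 and 71.89, and the optimal peaks at ranks 1201 to 1205 had 72.38, 72.37, 72.29, 72.25 and 72.21. At the lower bound, the last 5 members had 35.90, 35.90, 35.90, 35.90 and 35.89, and the next 5 regions had 35.88, 35.88, 35.88, 35.87 and 35.87. The q value, the caller's false discovery rate, was as good as in every optimal peak (-log10 q of 2.93) for 76 members, the last of them at rank 1285. It was at most 0.05 for 1066 members, down to rank 2320. The members' median -log10 q was 0.833. Of the members, 411 lay at ranks up to 1634, and the optimal list that the authors made in the older assembly ce10 held 1634 peaks. Members were not matched to ce10 peaks, so whether these 411 are in that list was not tested. All but 1 of the members were 384 bp wide. Read depth is unknown for these lists. All intervals below are exact 95% binomial intervals on counts of regions, and cover counting error only.

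A pair of words of 8 bases found at summits of optimal peaks also occurred at summits of some members, and the DNA of 8 such members is printed here because the lines show the words in place. A word was AGACGCAG or GCAAACAC, read on either strand (CTGCGTCT and GTGTTTGC on the other strand), and neither word holds the other. They are 8 members of high signal with a word within 50 bp of the summit and outside UTRs. Each line gives the 101 bases centred on the summit, on the plus strand of the RefSeq genome sequence of build ce11, and capitals mark the word.
ogt-1 (chrIII:7154066-7154166): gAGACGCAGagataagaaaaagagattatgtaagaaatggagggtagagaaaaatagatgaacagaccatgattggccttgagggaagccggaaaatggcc
dsh-2 (chrII:5081317-5081417): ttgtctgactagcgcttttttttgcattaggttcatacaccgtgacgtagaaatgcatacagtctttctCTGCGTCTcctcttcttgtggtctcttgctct
hpo-29 (chrIII:235319-235419): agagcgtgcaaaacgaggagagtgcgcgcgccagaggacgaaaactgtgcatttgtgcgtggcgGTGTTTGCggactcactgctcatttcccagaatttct
F52G3.1 (chrX:16961588-16961688): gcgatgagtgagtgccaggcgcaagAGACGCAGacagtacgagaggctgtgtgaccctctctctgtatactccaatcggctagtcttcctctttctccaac
rbmx-2 and C30B5.2 (chrII:6197004-6197104): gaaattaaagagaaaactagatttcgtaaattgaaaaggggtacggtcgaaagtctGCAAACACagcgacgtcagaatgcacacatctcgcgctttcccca
hmg-1.2 (chrIII:6280258-6280358): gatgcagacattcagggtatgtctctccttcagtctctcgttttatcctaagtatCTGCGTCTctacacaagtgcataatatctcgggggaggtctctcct
gfl-1 (chrIV:11522686-11522786): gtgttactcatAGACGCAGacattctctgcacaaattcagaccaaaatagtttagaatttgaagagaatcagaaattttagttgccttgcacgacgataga
dnj-10 (chrIII:8631010-8631110): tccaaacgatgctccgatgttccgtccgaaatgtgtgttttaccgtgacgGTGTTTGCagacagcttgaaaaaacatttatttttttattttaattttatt
Of these, ogt-1 encodes the O-GlcNAc transferase, dsh-2 a Dishevelled protein of Wnt signalling, hmg-1.2 an HMG-box chromatin protein, gfl-1 a YEATS-domain protein and dnj-10 a DnaJ-type co-chaperone. The gene printed for each line is the nearest by 5' end: the summit lay at -2233 bp from F52G3.1 and 1446 bp downstream of the 5' end of gfl-1, so those 2 were not promoter summits as defined below.

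AGACGCAG occurred within 50 bp of the summit in 141 members, 3.84% (interval 3.24 to 4.51), in 113 optimal peaks (9.38%) and in 224 weaker regions (0.903%). The whole combined list of 30000 regions had it in 1.61%. In flanks of the same number of word positions, starting 200 bp from the summit, it occurred in 44 members, 9 optimal peaks (0.747%) and 194 weaker regions (0.782%). GCAAACAC occurred at the summit in 78 members, 2.12% (1.68 to 2.64), in 84 optimal peaks (6.97%) and in 134 weaker regions (0.540%), against 0.997% of the whole combined list. Its flank counts were 21 members, 7 optimal peaks and 117 weaker regions. Both words were therefore in more members' summits than in their flanks, at a share below that of the optimal peaks and above that of the weaker regions, and most members, 3454, held neither. Only 1 member held both. The words were chosen from earlier results in the optimal list, and a match describes the letters and no site.

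The word carriers stood in different places. Of the 78 members with GCAAACAC at the summit, 61 (78.2%, 67.4 to 86.8) were within 500 bp of a protein-coding 5' end, whereas of the 141 with AGACGCAG 65 were (46.1%, 37.7 to 54.7). Among the 3454 members with neither word the promoter share was 42.3% (40.6 to 44.0). The median combined rank was 1968 for GCAAACAC carriers, 2471 for AGACGCAG carriers and 3173.5 for members with neither. Rank at most 5000 in both replicates was reached by 115 of the 218 carriers of either word (52.8%, 45.9 to 59.5), against 36% (34.4 to 37.6) of the members with neither. Only 4 of the 218 carriers (1.83%) had their summit in a coding exon, against 17.3% of the members with neither. When all 8-base words were ranked by the number of members that held them only at the summit minus only in the flanks, the first 4 were overlapping forms of AGACGCAG, from 141 against 44 members for AGACGCAG itself to 86 against 19 for ACGCAGAG. The fifth was the repeat GAGAGAGA, at the summit only in 130 members and in the flanks only in 66. GCAAACAC was the ninth.

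Base composition followed the same order. The 101 bases at the summit averaged 40.6% GC ± 9.83 (SD over 3672 members) and the flanks 36.8% ± 7.72. Optimal peaks averaged 46.6% ± 8.12 at the summit and 35.5% ± 7.64 in the flanks, and weaker regions 36.7% ± 9.48 and 35.9% ± 7.79. GC was higher at the summit than in the flanks in 2286 members (62.3%, 60.7 to 63.8), in 84.1% of the optimal peaks and in 52.2% of the weaker regions, with 54.5% in the whole combined list. Promoter members and the other members had nearly equal summit GC, 40.5% ± 9.74 and 40.6% ± 9.90.

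Promoters made up a smaller share of the members than of the optimal peaks, and a larger share than of the weaker regions. A summit counted as a promoter summit where a protein-coding transcript started within 500 bp of it in the annotation. There were 1587 such members, 43.2% (41.6 to 44.8), against 818 optimal peaks (67.9%, 65.2 to 70.5) and 6699 weaker regions (27%). The share was 31.0% in the whole combined list, and such windows cover 23.2% of the bases of the 6 chromosomes. Since promoter position was no part of the rule, this is a description of the members that the signal did not fix directly, though signal and position move together along the whole list. Each replicate's own list, cut at the same ranks, gave 40.7% and 41.2%, both below the interval of the members' share. No optimal share was computed per replicate, so these values give no replicate error for the gap to the optimal peaks.

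The promoter share declined through the members with no break at either bound. It was 54.8% (51.1 to 58.4) down to rank 2000, 45.6% (42.5 to 48.8) from there to rank 3000, 40.5% (37.4 to 43.7) to rank 4000 and 34.7% (31.7 to 37.7) to rank 5000. On either side of the members, it was 60.7% among the last 305 optimal peaks and 30.8% among regions between ranks 5000 and 10000. The coding exon share went the other way, with 8.33%, 14.6%, 18.8% and 22.0% in the same 4 rank classes. It was 1.64% among the same 305 optimal peaks and 23.7% between ranks 5000 and 10000. Unlike the promoter share, it had separate intervals at the upper bound, 0.534 to 3.78 for the 305 peaks and 6.46 to 10.5 down to rank 2000.

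**Figure D1:**
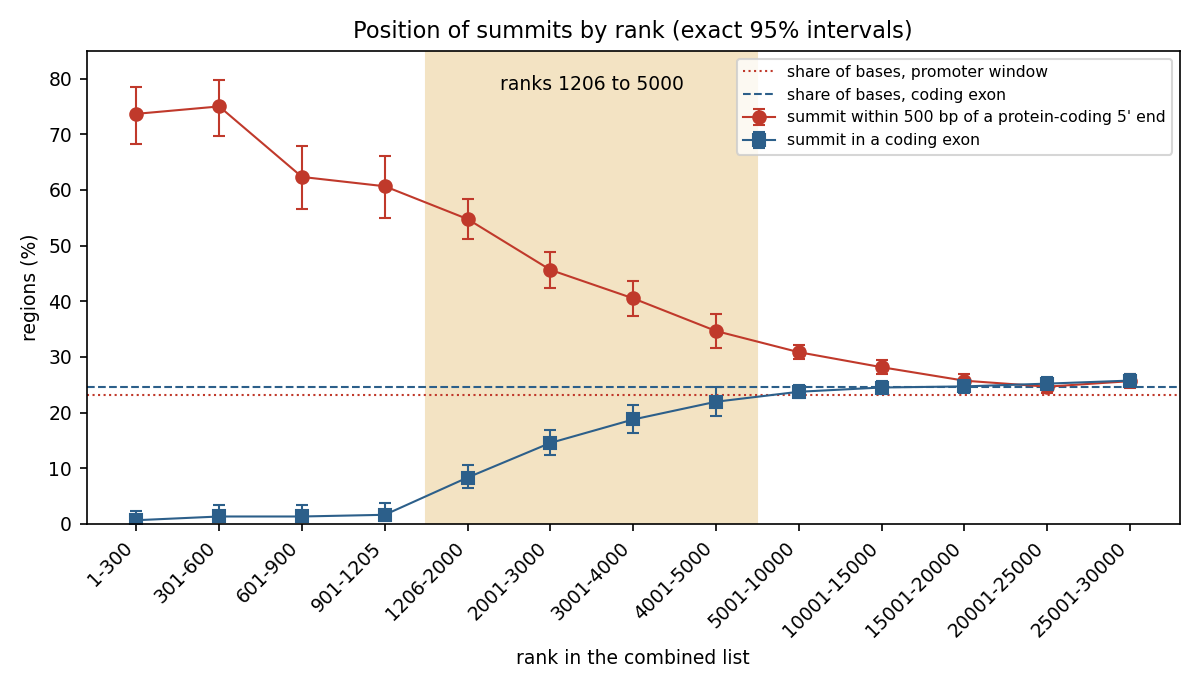
Share of regions (%) whose summit lies within 500 bp of a protein-coding 5' end (circles) or in a coding exon (squares) in successive rank classes of the combined list, with exact 95% intervals; the shaded classes are the members and horizontal lines give the shares of bases. The promoter share in the shaded classes declines from 54.8% to 34.7% while the coding exon share climbs from 8.33% to 22.0%, and both approach the shares of bases at the lowest ranks.

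Promoter summits of the members sat close to the 5' end, less sharply upstream than those of the optimal peaks. Their median position was -89 bp (quartiles -223 and 86.5 bp, negative being upstream), against -151 bp (-246 and -68.25) for promoter summits of optimal peaks and 17 bp (-199 and 226) for those of weaker regions. They lay upstream of the nearest 5' end in 1015 of 1587 members (64%, 61.5 to 66.3), against 90.5% of optimal peaks and 47.8% of weaker regions. A summit within 500 bp of the 5' ends of at least 2 genes, the usual layout of a divergent pair, occurred in 279 promoter members (17.6%), in 36.3% of promoter optimal peaks and in 6.36% of promoter weaker regions. At the far end, 841 members (22.9%) were over 2000 bp from any protein-coding 5' end, against 13.1% of optimal peaks and 32.4% of weaker regions.

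**Figure D2:**
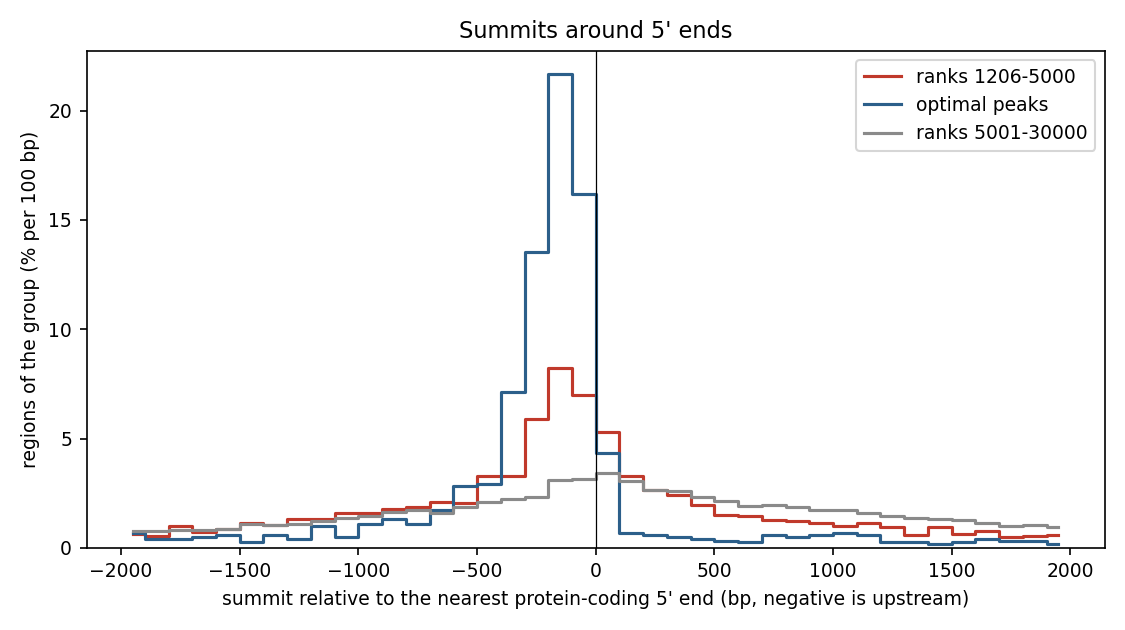
Position of the summit relative to the nearest protein-coding 5' end in 100 bp steps (bp, negative is upstream), as a percentage of all regions of each group: members, optimal peaks and weaker regions. The members peak upstream of the 5' end like the optimal peaks but lower, with a median of -89 bp against -151 bp among promoter summits, and weaker regions have a lower maximum, 3.44% per 100 bp just downstream of the 5' end.

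By annotation at the summit base, 1636 members were intergenic (44.6%), 973 intronic (26.5%) and 16.4% in coding exons. A further 142 were in 5' UTRs (3.87%), 118 in 3' UTRs (3.21%), 152 in other non-coding genes (4.14%) and 50 in small or structural RNA genes (1.36%). Coding exons held 16.4% of the members (15.2 to 17.6), 1.24% of the optimal peaks (15 summits) and 24.8% of the weaker regions, with 22.8% in the whole combined list and 24.6% of all bases. The members' share in coding exons was thus nearer to the share of bases than to that of the optimal peaks. Introns held 26.5% of the members, 13.8% of the optimal peaks and 34.1% of the weaker regions, against 32.7% of bases. In 5' UTRs the share was 3.87% of members, 5.23% of optimal peaks and 1.72% of weaker regions, and 1.43% of bases. Of the coding exon members, 282 (46.9%) were also within 500 bp of a 5' end. Coding exon summits had 44.5% ± 8.09 GC against 38.4% ± 8.22 in their flanks, and intron summits 38.5% ± 9.69 against 37.3% ± 7.81.

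**Figure D3:**
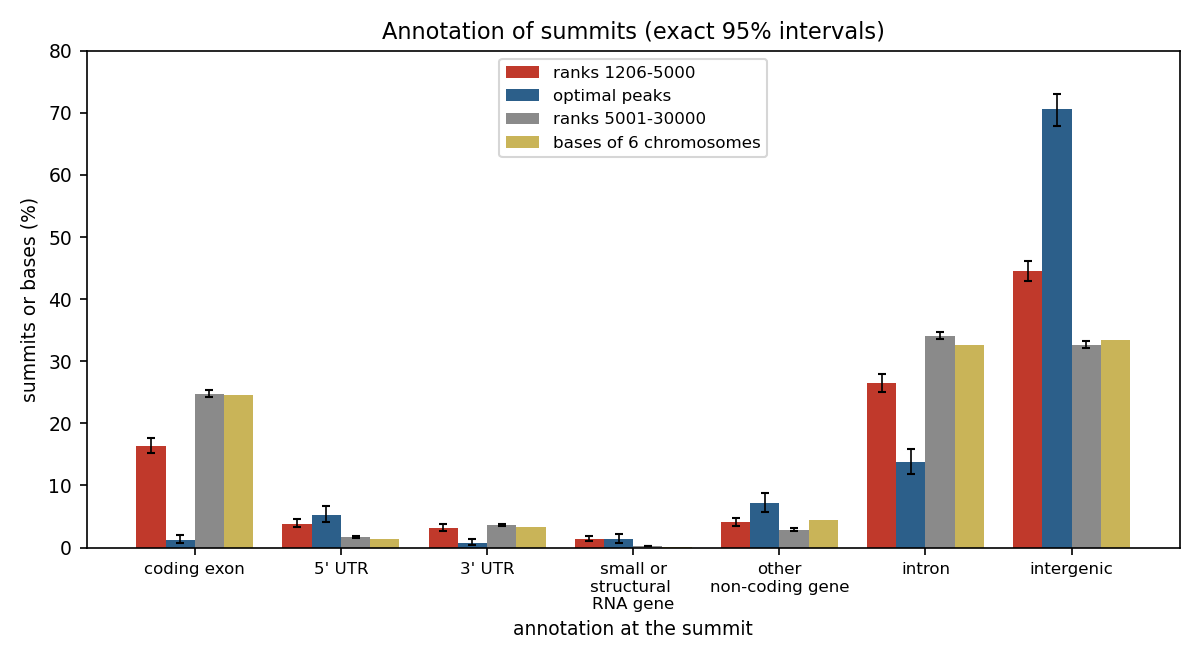
Percentage of summits in each annotation class for members, optimal peaks and weaker regions, with exact 95% intervals, and percentage of the bases of the 6 chromosomes in each class. The members stand between the optimal peaks and the weaker regions for coding exons (16.4%), introns (26.5%) and intergenic DNA (44.6%), and with the optimal peaks for small or structural RNA genes (1.36%).

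Small RNA genes were about as common among the members as among the optimal peaks. They held 1.36% of the members, 1.33% of the optimal peaks and 0.238% of the weaker regions, against 0.133% of bases. Of the 50 such members, 40 had their summit in a tRNA gene, 6 in snoRNA genes, 3 in snRNA genes and 1 in a miRNA gene. The 40 tRNA members lay in 40 of the 612 annotated tRNA genes (6.54%), against 10 genes (1.63%) with an optimal summit. These shares are not adjusted for the number of regions, 3672 members against 1205 optimal peaks. The 24809 weaker regions had 36 summits in tRNA genes. Transfer RNA genes are read by RNA polymerase III from promoter elements inside the gene. The median combined rank of the 40 members was 2221.5, 36 of the 40 had a region in both replicates, and 19 ranked at most 5000 in both. Identical copies are common in this class: 37 of the 40 had the same sequence as at least 1 other annotated tRNA gene, as did 469 (76.6%) of all 612, so reads from one copy cannot always be assigned to it. The labels used here do not say how such reads were treated, and their part in these values was not tested.

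The DNA at 4 tRNA members of high signal is printed to show where the summit window falls on the gene. Lines give the 101 bases centred on the summit on the plus strand of ce11, with the bases of the tRNA gene in capitals; W09G10.t1 lies on the minus strand and the others on the plus strand.
F52C9.t1 (chrIII:5305871-5305971): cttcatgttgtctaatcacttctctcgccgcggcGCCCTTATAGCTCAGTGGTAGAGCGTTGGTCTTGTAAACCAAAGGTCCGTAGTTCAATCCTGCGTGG
W09G10.t1 (chrII:3521489-3521589): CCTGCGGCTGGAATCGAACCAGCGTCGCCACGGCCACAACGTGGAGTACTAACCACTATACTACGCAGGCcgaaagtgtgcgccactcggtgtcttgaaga
K11E4.t2 (chrX:13716493-13716593): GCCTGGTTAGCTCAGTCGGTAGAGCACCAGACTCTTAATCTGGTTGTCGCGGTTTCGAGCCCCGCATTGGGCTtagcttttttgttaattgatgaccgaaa
B0350.t1 (chrIV:5967150-5967250): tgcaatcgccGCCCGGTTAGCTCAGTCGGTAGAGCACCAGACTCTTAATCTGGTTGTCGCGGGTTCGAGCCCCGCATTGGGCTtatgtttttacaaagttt
F52C9.t1 had rank 1234 with a signal of 71.1 and ranks of 1006 in replicate 1 and 2168 in replicate 2, and 9 annotated tRNA genes, itself included, have its sequence. W09G10.t1 had rank 1251 with a signal of 70.7 and replicate ranks of 1099 and 1260, with 11 such genes, itself included. K11E4.t2 had rank 1436 (64.6) with replicate ranks of 1879 and 1251, and no other tRNA gene had its exact sequence. B0350.t1 had rank 1455 (64.1) with replicate ranks of 2838 and 693, and 25 tRNA genes, itself included, have its sequence. The first lies within the span of F52C9.5 and the second within that of the collagen gene col-72.

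Nearly all members were in the replicate 1 list and fewer were in the replicate 2 list. A region of replicate 1 overlapped 3660 members (99.7%) and a region of replicate 2 overlapped 3285 (89.5%). Both did for 3273, which is 89.1% (88.1 to 90.1), against 99.7% of the optimal peaks and 37.4% of the weaker regions, with 46.9% in the whole combined list. There were 387 members with a region in replicate 1 only, 12 with a region in replicate 2 only and none with neither. Replicate lists held 30000 regions in replicate 1 and 28005 in replicate 2 and covered 10.8% and 10.3% of the bases. Since the combined list was made from the same reads as the replicate lists, presence in them describes the members and does not test them.

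Presence at any rank is a loose measure, and ranks agreed less. A rank of at most 5000 was reached in both replicates by 1359 members (37%), in replicate 1 only by 1354, in replicate 2 only by 600 and in neither by 359. Among optimal peaks 1195 (99.2%) and among weaker regions 438 (1.77%) were at rank 5000 or better in both. Where a region was present, the median rank was 3197.5 in replicate 1 (quartiles 2101.75 and 5095.25) and 3786 in replicate 2 (2073 and 8298). Replicate 2 thus spread the members over a wider range of ranks. A rank of at most 1205 was reached by 132 members in replicate 1, by 230 in replicate 2 and by 7 in both, against 880 of the 1205 optimal peaks in both. The groups were cut at ranks 1205 and 5000 of a list from the same reads. That partly fixes these contrasts between groups.

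**Figure D4:**
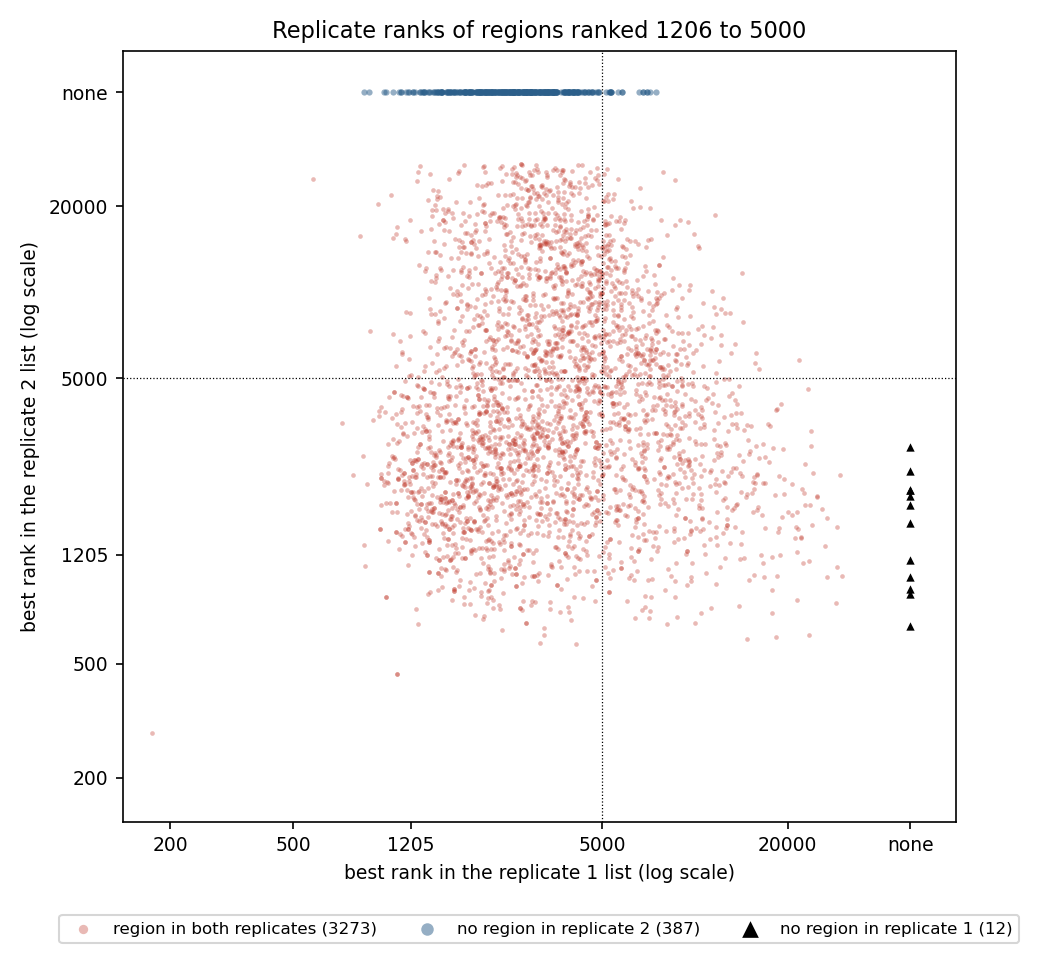
Best rank of an overlapping region in the replicate 1 list (x axis, log scale) against that in the replicate 2 list (y axis, log scale) for each of the 3672 members, with those lacking a region placed at none; dotted lines mark rank 5000. The lower left corner holds the 1359 members ranked at most 5000 in both, and the row at the top the 387 with no region in replicate 2.

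Members ranked well in replicate 1 only were less often at promoters than those ranked well in both replicates. The promoter share was 51.0% (48.3 to 53.7) among the 1359 ranked at most 5000 in both replicates, 36.9% (34.4 to 39.6) among those so ranked in replicate 1 only, 44.5% (40.5 to 48.6) in replicate 2 only and 35.4% (30.4 to 40.6) in neither. Coding exons held 10.1% (8.53 to 11.8), 23.1% (20.9 to 25.5), 11.5% (9.06 to 14.3) and 22.8% (18.6 to 27.5) of the same classes. These classes also differ in combined rank, with medians of 2060, 3473.5, 3679 and 4418. Within ranks 2001 to 3000 alone, the promoter share was 48.7% (44.0 to 53.4) for both, 40.3% (35.2 to 45.6) for replicate 1 only and 49.3% (40.7 to 57.9) for replicate 2 only. For members down to rank 2000 it was 54.9% (50.9 to 58.8) for both, 48.9% (38.1 to 59.8) for replicate 1 only and 70.0% (50.6 to 85.3) for the 30 members of replicate 2 only. The 387 members with no region in replicate 2 had a promoter share of 35.4% and a coding exon share of 27.9%, against 44.2% and 15% of those in both replicates.

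A handful of members ranked high in 1 replicate or in both. The member at combined rank 2233 (chrI:13463950-13464333, in a non-coding gene inside the span of ints-8, a subunit of the Integrator complex) had ranks 174 and 287, but its summit was 203 bp from that of an optimal peak, and it is the 1 member with an optimal summit within 500 bp. The next 4 were 2 neighbouring pairs, each pair under 1 shared region in each replicate. One pair lay in introns of abts-4 on chromosome X, at ranks 2052 and 2113, with replicate ranks of 998 and 859. The other lay by 5' ends inside nurf-1, which encodes a chromatin remodelling subunit, at ranks 1257 and 1382, with replicate ranks of 1084 and 459. In all, 294 members shared a replicate 1 region with another member and 287 a replicate 2 region, so their replicate ranks are not separate values. This also holds for 1 member that shared a replicate 1 region with an optimal peak, and for 2 that shared a replicate 2 region.

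Regions absent from 1 replicate could be strong in the other. Of members with no region in replicate 1, 5 ranked at most 1205 in replicate 2, and of those with no region in replicate 2, 11 did so in replicate 1. Without replicate 1, a member at rank 2288 near zyg-11, a substrate receptor of a ubiquitin ligase, had a replicate 2 rank of 677. Those near tag-131 (rank 2521), T05H10.1 (2665) and sax-2 (3180) had replicate 2 ranks of 1004, 2029 and 880. Without replicate 2, the first was at rank 1343 (signal 67.7, nearest gene W05H9.4) with a replicate 1 rank of 877. The one at rank 1585 lay between C15H11.11 and nxf-1, an mRNA export factor, with a replicate 1 rank of 1002. Those near cal-2 (rank 1677), mstr-2 (1683) and in a coding exon of rec-8, a meiotic cohesin subunit (1719), had replicate 1 ranks of 1055, 1098 and 1240.

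The 15 members of highest signal ran from 72.18 to 71.69 and were all in both replicates. Their replicate 1 ranks ran from 717 at C34B4.2 to 2128 at ogt-1, and their replicate 2 ranks from 819 at ogt-1 to 3692 near ztf-6. Of the 15, 13 were intergenic. The first (chrI:2996188-2996571) lay between dnj-28, a DnaJ-type co-chaperone, and supr-1, at -108 bp from dnj-28, with replicate ranks of 960 and 2311. At rank 1207 (chrIII:7153924-7154307) was the ogt-1 promoter with its summit at -319 bp. Rank 1210 was the dsh-2 promoter at -193 bp with replicate ranks of 1046 and 1706. Rank 1218 lay between T20B12.3 and hmg-4, a subunit of the histone chaperone FACT, with replicate ranks of 1677 and 1220. Rank 1219 lay between aman-2, a Golgi alpha-mannosidase, and F58H1.3, and rank 1220 between ubc-18, a ubiquitin-conjugating enzyme, and R01H2.8. Rank 1221 lay between rbmx-2 and C30B5.2. The 5' UTR of C34B4.2 held rank 1212, and hpo-29 (-475 bp) was at rank 1214. The others were not promoter summits by the 500 bp definition: those at ranks 1209 (nearest gene K01F9.2), 1211 (K08C9.9), 1213 (ztf-6, at -4536 bp), 1215 (an intron of duo-3), 1216 (trak-1, at -4920 bp) and 1217 (F52G3.1).

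The strongest members in exons had signals close to the top of the range. In coding exons these were at rank 1385 (signal 66.1) in ril-2, rank 1407 (65.4) in Y71F9AL.8 and rank 1409 (65.4) in R11A5.6, where the span of pck-2, a phosphoenolpyruvate carboxykinase gene, overlaps. Next to C34B4.2, the 5' UTR summits of highest signal were those of idhb-1, an isocitrate dehydrogenase subunit (rank 1237), and C16A3.6 (1238). In 3' UTRs they were in chtb-2 (1246), adal-1 (1327) and gpcp-1 (1413). In introns they followed duo-3 with gpcp-2 (1222) and T24H7.2 (1229). Other non-coding genes had rank 1274 near T23F11.4, rank 1276 at -262 bp from pkc-3, the atypical protein kinase C of cell polarity, and rank 1287 at -282 bp from myrf-1, a membrane-bound transcription factor of moulting.

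Promoter members reached 1711 protein-coding genes, 8.57% of the 19973 annotated. Optimal peaks reached 1101 (5.51%) and weaker regions 5655 (28.3%), and 7544 genes had some region of the combined list at a 5' end. Only 51 of the 1711 (2.98%) were also at an optimal peak, which is 1660 genes added to those of the optimal list. The small overlap is partly fixed by the rule, since regions that overlapped an optimal peak had been dropped. Gene assignment is by distance alone, and a summit between 2 genes counts for both.

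Housekeeping gene families were at members' summits at shares above the 8.57% of all genes. The optimal shares printed beside them have a lower background, 5.51% of all genes, so the paired shares cannot be compared directly. Cytosolic ribosomal protein genes encode the building blocks of the ribosome. They were at members in 21 of 78 cases (26.9%) and at optimal peaks in 47 (60.3%). Of the 21, 17 were at no optimal peak, so that 64 of the 78 (82.1%) were at one or the other. Among all 1711 genes at members, 1660 were at no optimal peak, so this is not particular to the family. Of all protein-coding genes, 5.51% were at an optimal peak and a further 8.31% at a member only. The strongest members at ribosomal protein genes were at rpl-1 (rank 1347), rpl-18 (1372) and rpl-39 (1374). Translation factors were at members in 12 of 41 cases (29.3%, optimal 36.6%), led by eif-3.G (1306), erfa-3 (1450) and ife-3 (1529). Proteasome subunits followed with 10 of 33 (30.3%, optimal 27.3%), led by pbs-1 (1278), rpn-13 (1408) and pbs-6 (1651), and splicing factors with 15 of 53 (28.3%, optimal 26.4%), led by rsp-5 and snr-3, which share the summit at rank 1256, and rsp-3 (1380).

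Further families of growth and secretion had shares between these and the background. Genes of ER translocation and vesicle coats were at members in 10 of 45 cases (22.2%, optimal 35.6%), with trap-1 (1332), copg-1 (1490) and tmed-10 (1759). Chaperones had 19 of 89 (21.3%, optimal 28.1%), with dnj-28 (the first member), fkb-1 (1263) and dnj-10 (1285). Small GTPases and vesicle traffic had 15 of 77 (19.5%, optimal 14.3%), with snx-3 (1363), rab-14 (1395) and arf-6 (1808). Mitochondrial ribosomal proteins had 13 of 70 (18.6%, optimal 21.4%), with mrpl-39 (1489), mrps-28 (1657) and mrpl-17 (1696). In the respiratory chain and ATP synthase, 5 of 49 genes were at members (10.2%), near the share of all genes, and 22 (44.9%) at optimal peaks. None of the 49 was at both. With so many genes at optimal peaks, the members' share of this list is partly set by the rule. Its strongest members were at asg-2 (1258), cox-14 (1481) and sdhd-1 (2781). Aminoacyl-tRNA synthetases were also near the background with 3 of 32 (9.38%, optimal 15.6%), namely sars-2, qars-1 and yars-2.

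For 4 further families of nuclear proteins the intervals of the members' shares included the 8.57% of all genes. RNA polymerase II, TFIID and Mediator genes were at members in 8 of 51 cases (15.7%, interval 7.02 to 28.6, optimal 23.5%), with taf-8 (1252), taf-10 (1412) and rpb-8 (1863). DNA replication and cell cycle genes had 9 of 61 (14.8%, 6.98 to 26.2, optimal 19.7%), with mcm-5, a subunit of the replicative helicase, at rank 1580. Chromatin regulators had 11 of 87 (12.6%, 6.48 to 21.5, optimal 20.7%), with jmjd-1.2 (1544), swsn-9 (1604) and lin-61 (1678). Histones had 8 of 80 (10.0%, 4.42 to 18.8, optimal 6.25%), with his-72, an H3.3 gene, at rank 1425 and the neighbours his-3 and his-4 sharing the summit at rank 2363.

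Lists of tissue or environmental genes were near or under the share of all genes, apart from 2 short ones. For 1 of these 2, the muscle list, the interval included the share of all genes. Chemoreceptors, the largest family, were at members in 6 of 1309 cases (0.458%, optimal 0.229%), innate immunity and lectin genes in 2 of 350 (0.571%, optimal the same), neuropeptides and insulins in 1 of 141 (0.709%, optimal the same), homeobox factors in 2 of 80 (2.50%, optimal 1.25%) and cuticle collagens in 5 of 172 (2.91%, optimal 1.74%). F-box, BATH and MATH genes had 17 of 412 (4.13%, optimal 0.728%), with fbxc-33 at rank 1319, and detoxification enzymes 10 of 215 (4.65%, optimal 1.86%). Germline genes had 4 of 49 (8.16%, optimal 4.08%). Nuclear hormone receptors, ligand-regulated transcription factors that are a large family in worms, were at members in 27 of 269 cases (10.0%) and at optimal peaks in 4 (1.49%), where the share of all genes is 5.51%. Their strongest members were at nhr-1 (1291), nhr-119 (1410) and nhr-49 (1614), the last a regulator of fat metabolism, whose region had rank 14816 in replicate 1 and 612 in replicate 2. The 2 short lists were synaptic and neuronal genes, with 6 of 23 at members (26.1%, interval 10.2 to 48.4) and 0 at optimal peaks, and muscle genes, with 5 of 26 (19.2%, 6.55 to 39.4) and 1 at an optimal peak. They included snb-1, the synaptobrevin gene, at rank 1703 with replicate ranks of 2909 and 1247, act-1, an actin gene, at rank 1684 with 2352 and 2431, and tnt-2, a troponin T gene, at rank 2406 with 2253 and 2941. The region at ric-19 (2461) had no counterpart in replicate 2.

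**Figure D5:**
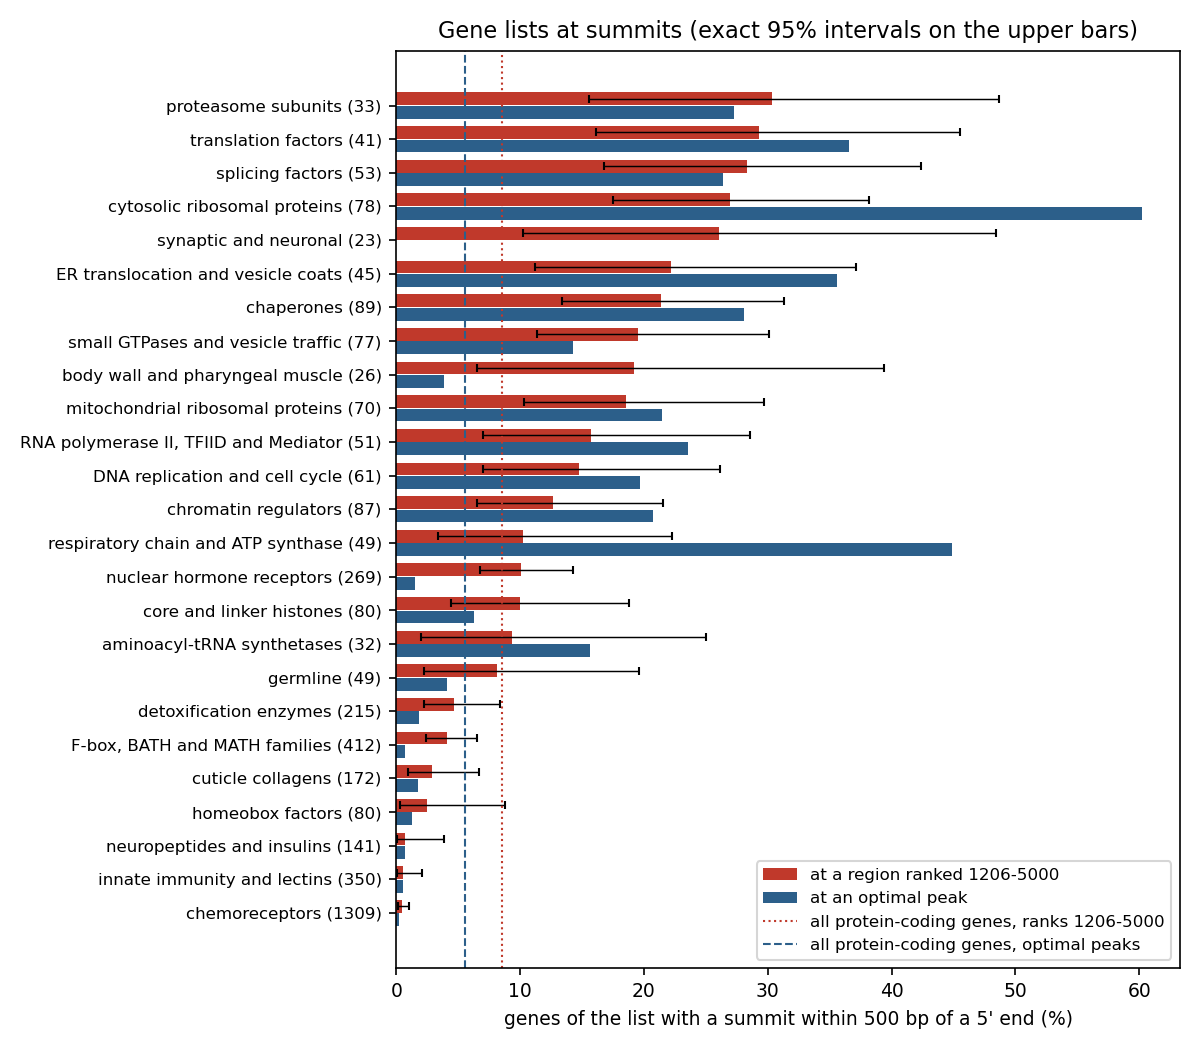
Percentage of the genes of each of 25 lists (gene number in brackets) with a summit within 500 bp of a 5' end, at members (upper bars, with exact 95% intervals) and at optimal peaks (lower bars); the dotted and dashed lines give the same shares of all protein-coding genes, 8.57% and 5.51%. Proteasome, translation and splicing lists stand near 30% in the upper bars, and cytosolic ribosomal proteins and the respiratory chain have long lower bars. Upper and lower bars have different backgrounds and are not independent, since regions that overlapped an optimal peak were dropped from the members.

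Some genes held several members inside their span, promoter summits included. Of the members, 1902 lay inside the span of a protein-coding gene, in 1498 genes, of which 1210 held 1 member and 20 held 5 or more. The gene with most was aakg-1, a regulatory subunit of the AMP-activated kinase (chrIII:12538664-12575401), with 8 members, 7 of them in introns, from rank 1281 down, and 1 optimal summit. ZK470.2 and akap-1, an A-kinase anchor protein gene, held 7 each, and egl-27, a chromatin regulator of the MTA family, and fkh-7, a forkhead factor gene, held 6 intronic members each, all 6 in both replicates. These genes were picked by their counts after the values were seen.

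The members were spread over the genome, with a few dense stretches. Of 5016 windows of 20 kb, 2113 held a member, and the mean was 0.732 per window. The densest, chrX:3100001-3120000, held 10 members at gpd-2 and gpd-3, which encode glyceraldehyde 3-phosphate dehydrogenase, at spc-1 (alpha spectrin), mai-1, gpcp-1, K10B3.5 and ztf-13, with 1 optimal peak; 8 of the 10 were in both replicates. Next came 4 windows with 8 members each, of which the first 2 in genome order are described. The window chrII:6820001-6840000 held 8 members and no optimal peak, 4 of them in introns and 2 at promoters, at egl-27. The window chrII:10540001-10560000 held 8 members and 4 optimal peaks, with mnk-1 and pro-1 among its promoters. In these 3 windows together 24 of the 26 members were in both replicates, a share near the 89.1% of all members. An optimal summit lay within 1000 bp of 125 members (3.40%, 2.84 to 4.04) and of 2.16% of the weaker regions, against 2.32% of all regions below the optimal list. Regions that overlapped an optimal peak were left out of all 3 shares. The members' median distance to an optimal summit was 22192.5 bp.

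By chromosome, I and III held more members than their share of protein-coding genes, and II and V held fewer. Chromosome I had 19.9% of the members (14.4% of genes), II had 14.9% (17.3%), III 19.8% (13.2%), IV 17.1% (16.4%) and V 14.1% (25% of genes). For I, III and V the whole combined list (18.6%, 18.5% and 15.9%) departed from the gene shares in the same directions. So did the optimal peaks (21%, 21.8% and 11.8%). Chromosome II held 14.4% of the combined list, below its gene share like the members, and 18.5% of the optimal peaks. Gene shares are a limited reference, since 2085 members were away from promoters, and shares of bases by chromosome were not computed. Chromosome X held 522 members, 14.2% (13.1 to 15.4), against 11.5% of the optimal peaks, 15.1% of the weaker regions, 14.8% of the combined list and 13.7% of genes. On the autosomes, the third of each around its centre held 1162 of 3150 members (36.9%), 43.1% of the optimal peaks and 30.3% of the weaker regions, with 38.1% of autosomal genes.

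At the gene that was tagged, C04F5.9 on chromosome V, no region of the combined list lay within 20 kb, members included. At unc-119, the gene carrying the strain's background mutation, 4 members lay within 20 kb and 2 of them in the gene, out of 27 combined-list regions and no optimal peak. The strongest of these was in an intron of unc-119 at rank 2287 with replicate ranks of 1456 and 1229. Whether the transgene's own copies contribute there was not tested.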

How the data were processed

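The authors' deposited lists in ce11 gave, for each region, a signal value, a −log10 q value and a summit offset. Regions were called, per the file headers and README texts, against a control alignment as relaxed input for IDR, per replicate and on both replicates combined, and the optimal list was thresholded by IDR. Aligner, caller and IDR cutoff: not given in the sources used here. Signal scale is set per list, so signal ranks regions only within a list. Control alignments were not analysed here.

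Summits were annotated with Ensembl release 115 on 6 chromosomes (Python 3.11.15, pandas 2.3.3, numpy 2.4.6, scipy 1.17.1). Overlap meant at least 1 bp, and a region's replicate rank was that of its best overlapping region. Each summit base got 1 class, in the order coding exon, 5' UTR, 3' UTR, small RNA, other non-coding, intron, intergenic, with piRNA genes left out. tRNA names came from RefSeq by position in the same assembly; all 40 matched. Shares are compared by exact 95% intervals, with no p-value, since all samples form 1 group. Promoter assignment, overlaps, the word search and the rule for members were tested on simulated data. The other steps, annotation classes among them, were not. The members, the 2 words and the 25 gene lists, which were defined by gene symbol, were chosen with earlier results of these data known. Named genes and regions follow a rule: the 15 members of highest signal, those at the bounds, 5 each for best replicate agreement and for absence from a replicate, 3 per annotation class, 3 per gene list and 3 of the densest windows (ties in genome order), with C04F5.9 and unc-119. One region that the rule names is not reported here.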

Additional observations from a re-analysis of the deposited data

How the results depend on the processing

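Of 54 alternatives, 33 moved a share beyond its counting interval or a count by over 1.5 times, and 21 did not. No paired analysis was possible because all samples form 1 group. Taking the same ranks from 1 replicate alone gave promoter shares of 40.7% to 41.2%, coding exon shares of 15.1% to 20.5% and shares near an optimal peak of 3.31% to 4.10%. Members down to rank 3000 had a promoter share of 49.7%, a coding exon share of 11.8%, presence in both replicates of 95.4%, 991 genes, AGACGCAG in 5.41% and higher GC at the summit in 68.2%. Those below rank 3000 had 37.6%, 20.4%, 83.6%, 802 genes, 2.46% and 57.1% for the same measures. The promoter share was 28.4% with a 250 bp window, 59.2% with 1000 bp, 46.4% from 1000 bp upstream to 100 bp downstream, 56.9% with 5' ends of all genes and, chosen after seeing the data, 55.2% with all but piRNA genes. Also chosen after seeing the data, members in the top 5000 of both replicates had a promoter share of 51.0% and a coding exon share of 10.1%. Presence in both replicates was 82.0% when 50% of each region had to be shared, 67.1% for summits within 100 bp, 37.01% in the top 5000 and 64.9% in the top 10000 of each. A 250 bp window gave 1087 genes, a 1000 bp window 2392 and the nearest 5' end alone 1463, and the number of members ran from 3229 (ce10 lists) to 3794. An optimal summit lay within 500 bp of 0.0272% and within 2000 bp of 9.99% of members. AGACGCAG stood within 25 bp of the summit in 1.80% and within 100 bp in 6.54%. Read depth is unknown, so the precision of single regions is too.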
